A study of Mus musculus with 4 samples.

Results

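The nuclei described here are those of the late distal convoluted tubule (DCT) in which RNA of the epithelial sodium channel (ENaC) was seen, taken from single-nucleus RNA-seq of 4 mouse kidneys. A nucleus was a member when it had at least 3 unique molecular identifiers (UMIs, each standing for 1 captured RNA molecule) of *Slc12a3*, at most 2 of *Slc12a1*, at least 2 of *Slc8a1* and at least 1 of *Scnn1b* and *Scnn1g* together. This rule found 209 of 27343 nuclei, with 43 and 33 in control mice 1 and 2 and 60 and 73 in knockout mice 1 and 2. The measured values of these 5 genes chose the members, so they are given as a description and were left out of every test.

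All 4 mice were males aged 12 weeks, and the controls carried the floxed *Tfap2a* alleles too. Knockout mice were Hoxb7Cre+;*Tfap2a* fl/fl and the controls were *Tfap2a* fl/fl littermates without Cre, with 2 mice per genotype and 1 library per mouse. Hoxb7Cre is active in cells of the ureteric bud that give rise to collecting ducts, whereas the DCT is part of the nephron, which does not arise from the ureteric bud. The cortex was trimmed from a middle slice of each kidney, and since the DCT lies in the cortex, its nuclei here are those that the trimming left. Reads were counted from the 3′ end of transcripts and need not cover the floxed exons, so *Tfap2a* UMIs do not check the deletion.

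The DCT reabsorbs sodium through the thiazide-sensitive cotransporter NCC, the product of *Slc12a3*, and its early stretch is known for magnesium uptake through the channel TRPM6. Toward its end the segment also carries ENaC, a channel of α, β and γ subunits (*Scnn1a*, *Scnn1b* and *Scnn1g*) that responds to aldosterone, together with a calcium route through the apical channel TRPV5, calbindins and the basolateral exchanger NCX1 (*Slc8a1*). The connecting tubule that follows has ENaC and calcium transport without NCC.

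In the RefSeq annotation of GRCm38.p6 (mm10), the gate genes are *Slc12a3* (ENSMUSG00000031766, chr8:94329109-94366222), *Slc8a1* (ENSMUSG00000054640, chr17:81373105-81738387), *Scnn1b* (ENSMUSG00000030873, chr7:121865038-121918728) and *Scnn1g* (ENSMUSG00000000216, chr7:121734420-121768482). The fifth is *Slc12a1* (ENSMUSG00000027202, chr2:125152510-125230002), which encodes the cotransporter of the thick ascending limb (TAL). Members had a median of 27, 46, 22.5 and 31 *Slc12a3* UMIs in controls 1 and 2 and knockouts 1 and 2, well above the limit of 3. Their median *Slc8a1* count was 171, 42, 114 and 137 UMIs in the same order, lowest in control 2. Per 1000000 UMIs of the member sum (CPM), *Slc12a3* stood at 10035, 14095, 8153 and 10742, *Slc8a1* at 57330, 32251, 43421 and 43339, *Scnn1b* at 458, 364, 441 and 295 and *Scnn1g* at 256, 230, 204 and 261. The channel limit was met more narrowly, since 131 members (62.7%) held exactly 1 UMI of the β and γ subunits together, 37 held 2 and 41 held 3 or more. *Scnn1b* alone was seen in 113 members, *Scnn1g* alone in 46 and both in 50. The α subunit, which the rule did not use, had a UMI in 122 of the 209 members.

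RNA free in the suspension gives UMIs in nuclei that do not express a gene, so the channel share was set beside that of nuclei that should lack the channel. Among *Slc12a3* nuclei with at least 2 *Slc8a1* UMIs, 23.4% and 25.0% of the control nuclei and 24.5% and 34.3% of the knockout nuclei had a β or γ UMI, at median depths of 2332, 2363, 2233 and 2549 UMIs. Among *Slc12a3* nuclei with at most 1 *Slc8a1* UMI the share was 6.50%, 10.6%, 4.76% and 6.94%, at median depths of 2011, 2298, 1915.5 and 2075 UMIs. In proximal tubule nuclei it was 2.40%, 2.50%, 3.46% and 1.19%, although these were deeper, with medians of 2873, 3475, 2819 and 3343 UMIs. In every mouse the share was highest where *Slc8a1* was present and lowest, of these 3 sets, in the proximal tubule.

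The 209 members were part of 1142 *Slc12a3* nuclei with at most 2 *Slc12a1* UMIs, and 2 neighbouring sets were used for comparison. ENaC-negative nuclei passed the same limits on *Slc12a3*, *Slc12a1* and *Slc8a1* but had no UMI of *Scnn1b* or *Scnn1g*, and there were 141, 99, 185 and 140 of them. The connecting tubule gate took nuclei with at least 2 *Slc8a1* UMIs, at least 1 channel UMI, at most 2 of *Slc12a1* and at most 1 of *Slc12a3*, in all 686 nuclei. A nucleus of this depth without a channel UMI may still hold the transcript, so the ENaC-negative set is defined by detection alone.

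The libraries held 42138345 and 24998797 UMIs for the controls and 44964099 and 22179410 for the knockouts, and the member sums held 104431 to 233944 UMIs per mouse. Median depth per member was 2663, 3001, 2411.5 and 2813 UMIs against 2164, 2216, 2179 and 2448.5 in ENaC-negative nuclei, so members were deeper in every mouse. Among kept nuclei 75 barcodes occurred in more than 1 library, 2 of them barcodes of members. Nuclei called as doublets numbered 2, 1, 5 and 10 among the members. Members with at least 10 UMIs of 12 proximal tubule markers numbered 2 and 2 in the controls and 8 and 11 in the knockouts, of which 1, 1, 5 and 10 were among the called doublets. No label names a batch. P-values of the comparisons between genotypes measure the spread between 2 mice per genotype. Members were compared with the neighbouring sets with the mouse as a block. Those p-values therefore set the difference between the sets against its variation from mouse to mouse. In both kinds of comparison the variance was estimated with information shared across genes. The ± SE of a gene can thus be narrower than its own spread between mice.

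Distal tubule markers had the highest sums of the cell type lists. The summed level of 11 DCT markers was 23336 to 33888 CPM in members, 32038 to 40101 CPM in ENaC-negative nuclei and 4734 to 7014 CPM in the connecting tubule gate, and that of 11 connecting tubule markers was 46078 to 75708, 18812 to 27722 and 35574 to 60633 CPM. These 2 lists share genes with the gate. *Slc8a1*, which the rule required, made up most of the connecting tubule sum in members of every mouse, and ENaC-negative nuclei lack *Scnn1b* and *Scnn1g* by rule. These sums are therefore a description and do not test what the members are. The 9 principal cell markers summed to 469 to 736 CPM in members against 288 to 514 and 3791 to 7838 CPM, and the 11 intercalated cell markers, with *Kit* at 0, to 182 to 769 CPM in members, highest in knockout 1. Proximal tubule markers summed to 1542 to 2582 CPM in members, TAL markers to 684 to 1398 CPM with *Kcnt1* at 0, and endothelial markers to 19.2 to 171 CPM with *Egfl7* and *Cdh5* at 0. Interstitial markers reached 15.5 CPM and immune markers 86.0 CPM at most, and the podocyte list, with *Nphs1* and *Synpo* among those at 0, gave 2456 to 4146 CPM, nearly all of it from *Magi2* at 2670, 4146, 2451 and 2702 CPM in members and 2774, 3036, 2482 and 2733 CPM in ENaC-negative nuclei.

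Members made up 0.556% and 0.608% of all nuclei in the controls and 0.750% and 1.18% in the knockouts. The means were 0.582% ± 0.0368 and 0.966% ± 0.305 (SD, n = 2 each), a difference of 0.384 percentage points with an exact permutation p of 0.333 (two-sided), the smallest that 2 mice against 2 allow. The groups did not overlap, but the difference was 0.168 points without knockout 2 and 0.600 points without knockout 1. As a share of *Slc12a3* nuclei, members were 14.0% and 18.4% in the controls and 16.2% and 25.6% in the knockouts, a difference of 4.67 points (exact permutation p = 0.667, two-sided). Here knockout 1 lay between the controls, and without knockout 2 the difference was -0.0486 points. With each nucleus thinned to 1500 UMIs, shallower ones left out and the gate applied again, the shares of *Slc12a3* nuclei were 11.2%, 11.3%, 11.8% and 17.2%, again highest in knockout 2. How much cortex each slice kept cannot be told apart from genotype in the share of all nuclei.

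**Figure D1:**
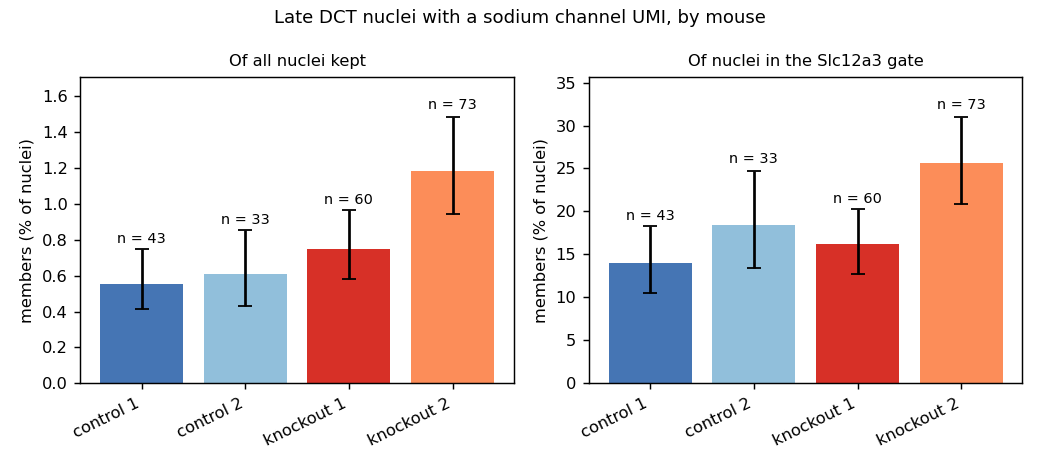
Members as a percentage of all nuclei (left) and of *Slc12a3* nuclei (right) in each mouse, with the number of members above each bar and 95% Wilson intervals that cover counting error only. Knockout 2 is highest in both panels, at 1.18% and 25.6%, and in the right panel knockout 1 (16.2%) lies between the controls (14.0% and 18.4%).

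Values on either side of the channel limit are given as a description. In nuclei with 0, 1 and at least 2 channel UMIs, pooled over the mice, *Calb1* was 3262, 4810 and 6564 CPM, *S100g* was 754, 1681 and 6412 CPM and *Klk1* was 383, 1234 and 2651 CPM. *Egf* ran the other way, at 4771, 2648 and 581 CPM, as did *Umod* at 2185, 918 and 387 CPM and *Erbb4* at 1123, 423 and 121 CPM. *Hsd11b2* was 14.0, 24.7 and 187 CPM. The members with a single channel UMI were intermediate for each of these 7 genes. The other limits cut few nuclei, since 3 members had exactly 3 *Slc12a3* UMIs, 4 nuclei otherwise in the gate had 2, 24 failed on *Slc8a1* alone and 6 on *Slc12a1* alone.

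Members were first compared with the ENaC-negative nuclei of the same mice, which asks what else differs where the channel is seen. Higher in members were 9 of 16 calcium handling genes tested, *S100g* and *Calb1* among them, and lower were 5 of 14 magnesium handling genes, *Egf* and *Umod* among them, and the receptor gene *Erbb4*. The other genes of both lists did not pass. Of 11418 genes tested with edgeR's quasi-likelihood test, with the mouse as a block, 171 passed an adjusted p under 0.05, which is 1.5% of those tested. Of these, 78 (0.683%) were higher and 93 (0.815%) lower in members, and the median log2 fold change of all genes was -0.03. Log2 fold changes are members over ENaC-negative nuclei, ± SE. DESeq2 called 41 genes, and the edgeR fit without the mouse block also called 41.

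The calcium handling list had 0 genes lower beside its 9 higher ones, and a median log2 fold change of 0.79. *S100g* (ENSMUSG00000040808, chrX:162961992-162964599) encodes calbindin-D9k, a cytosolic calcium buffer. Its level was 5169, 2825, 6003 and 1663 CPM in members of control mice 1 and 2 and knockout mice 1 and 2, against 775, 196, 1350 and 365 CPM in ENaC-negative nuclei. Members were higher in every mouse and the classes did not overlap (2.65 ± 0.12, adjusted p = 6.9e-98). Leaving out each mouse in turn gave log2 fold changes from 2.40 to 2.88, a range that the ± 0.12 does not cover. The RNA was uneven between nuclei, with medians of 4, 1, 5 and 3 UMIs per member, and a single nucleus gave 303 of the 666 UMIs in control 1. *S100g* was also found in 12.5% to 48.2% of proximal tubule nuclei, against 51.5% to 86.0% of members, at a level of 175, 54.6, 425 and 52.3 CPM, below the members of the same mouse in each case.

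*Calb1* (ENSMUSG00000028222, chr4:15881264-15906709), which encodes calbindin-D28k, was 5852, 5563, 5826 and 5262 CPM in members and 3007, 2612, 3905 and 3141 CPM in ENaC-negative nuclei. Its summed member levels lay within a narrow range and all above the other class (0.86 ± 0.11, adjusted p = 1.9e-12). Single nuclei varied more, with medians of 12, 7, 12.5 and 14 UMIs per member. In control 2 the top nucleus gave 146 of the 581 UMIs. Without the mouse block the adjusted p was 0.079. *Calb1* was detected in 87.9% to 98.3% of members, 83.7% to 91.4% of ENaC-negative nuclei and 3.84% to 11.3% of proximal tubule nuclei. Thinned to 1500 UMIs per nucleus, which left out 11, 55 and 1045 shallower nuclei of these classes, the shares were 87.1% to 97.6%, 79.5% to 85.7% and 2.50% to 6.87%.

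*Klk1* (ENSMUSG00000063903, chr7:44225360-44229622), the tissue kallikrein, was 2786, 881, 2983 and 898 CPM in members and 417, 232, 499 and 305 CPM in ENaC-negative nuclei (2.28 ± 0.13, adjusted p = 2.5e-61). It has close paralogs with similar sequence, so its count is uncertain to the extent that reads were shared. Its UMIs were uneven between nuclei too, with medians of 2, 0, 1 and 1 per member, and 1 nucleus gave 59 of the 92 in control 2. *Trpv5* (ENSMUSG00000036899, chr6:41651661-41681224), the apical calcium channel, was 77.6, 86.2, 140 and 111 CPM in members against 28.0, 24.5, 54.5 and 35.1 CPM (1.54 ± 0.29, adjusted p = 2.8e-05). A *Trpv5* UMI was found in 15.2% to 31.7% of members, 4.04% to 8.11% of ENaC-negative nuclei and 0.213% to 0.708% of proximal tubule nuclei, or 6.45% to 24.1%, 2.46% to 5.52% and 0.0892% to 0.514% after thinning. Among nuclei of 2000 to 6000 UMIs the adjusted p of *Trpv5* was 0.083.

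Regulators on the calcium list were higher too. *Kl*, which encodes klotho, was 2515, 2691, 2419 and 1928 CPM in members against 1095, 1394, 1459 and 1137 CPM (0.92 ± 0.12, adjusted p = 1.4e-12). The vitamin D receptor gene *Vdr* was 784, 622, 699 and 774 CPM against 342, 444, 488 and 440 CPM (0.77 ± 0.14, adjusted p = 7.6e-06), and the calcium release channel gene *Ryr2* was 163, 144, 177 and 197 CPM against 58.8, 73.4, 91.6 and 75.6 CPM (1.21 ± 0.23, adjusted p = 2.4e-05). For all 3 genes the lowest member sum was above the highest ENaC-negative sum. *Pth1r*, the parathyroid hormone receptor gene, and *Atp2b4*, which encodes a plasma membrane calcium pump, differed less (0.81 ± 0.17, adjusted p = 0.00035, and 0.69 ± 0.19, adjusted p = 0.020). The levels of *Pth1r* overlapped between the classes, at 512, 316, 414 and 188 CPM and 218, 155, 249 and 170 CPM, and proximal tubule nuclei held 246 to 333 CPM. Without the mouse block *Vdr*, *Pth1r* and *Atp2b4* had adjusted p of 0.162, 0.345 and 0.548.

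The magnesium list went the other way, with 5 of 14 genes lower, 0 higher and a median log2 fold change of -0.32. *Egf* (ENSMUSG00000028017, chr3:129677574-129755322), the precursor of a growth factor that stimulates magnesium uptake, was 2352, 1465, 984 and 2107 CPM in members and 5241, 3167, 4161 and 6136 CPM in ENaC-negative nuclei. The classes did not overlap (-1.46 ± 0.11, adjusted p = 1.5e-33). *Umod* (ENSMUSG00000030963, chr7:119462708-119479262), which encodes uromodulin, was 582, 1120, 715 and 517 CPM against 2987, 1614, 2453 and 1456 CPM (-1.52 ± 0.13, adjusted p = 5.8e-30). In proximal tubule nuclei *Umod* stood at 239, 226, 267 and 86.5 CPM, below the members of every mouse. *Pvalb*, the gene of the calcium buffer parvalbumin, was 334, 297, 279 and 201 CPM against 703, 530, 563 and 416 CPM (-0.98 ± 0.16, adjusted p = 1.5e-07), and its adjusted p without the mouse block was 0.050.

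Both magnesium channel genes were among those called lower. *Trpm7* was 1094, 1743, 801 and 1560 CPM in members against 2153, 2392, 1729 and 2539 CPM (-0.79 ± 0.12, adjusted p = 1.4e-08), lower in each mouse, and its adjusted p without the mouse block was 0.373. *Trpm6* was 1987, 2193, 1419 and 2218 CPM against 2251, 2767, 2333 and 2920 CPM (-0.39 ± 0.11, adjusted p = 0.040). This small difference was not called under 12 of its 18 alternatives. *Cnnm2*, which encodes a magnesium transport protein, was 722, 1092, 736 and 893 CPM against 700, 1406, 931 and 1153 CPM and did not pass (-0.25 ± 0.13, adjusted p = 0.627).

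Of the sodium channel and aldosterone list, 1 of 19 genes was higher and 2 were lower, with a median of -0.15. The α subunit *Scnn1a* (ENSMUSG00000030340, chr6:125314271-125344943), which the rule left free to vary, was 310, 364, 317 and 338 CPM in members and 269, 228, 242 and 346 CPM in ENaC-negative nuclei. It was higher in members of 3 of the 4 mice and did not pass (0.30 ± 0.16, adjusted p = 0.693). The mineralocorticoid receptor gene *Nr3c2* was 1350, 1274, 1032 and 1167 CPM against 879, 1109, 911 and 983 CPM, higher in members of each mouse, and did not pass either (0.33 ± 0.12, adjusted p = 0.251).

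*Hsd11b2* (ENSMUSG00000031891, chr8:105518746-105523988), whose enzyme keeps glucocorticoids off the mineralocorticoid receptor, was the higher gene of that list. It was 69.8, 19.2, 220 and 47.0 CPM in members and 8.40, 12.2, 21.8 and 10.8 CPM in ENaC-negative nuclei (2.79 ± 0.39, adjusted p = 2.0e-10). Knockout 1 gave 41 of the 63 UMIs, 13 of them in 1 nucleus, and without that mouse the adjusted p was 0.068. With nuclei that held at least 3 UMIs of principal or intercalated cell markers left out, the log2 fold change was 0.70 (adjusted p = 0.978). A *Hsd11b2* UMI was found in 6.06% to 13.3% of members and 1.57% to 6.02% of proximal tubule nuclei, or 3.23% to 11.1% and 0.847% to 4.17% after thinning, and the proximal tubule level was 35.5, 34.5, 73.5 and 9.49 CPM, above that of the members in control 2. The lower genes were *Zbtb16* and *Fkbp5*, which respond to corticosteroids (-1.24 ± 0.34, adjusted p = 0.022, and -0.65 ± 0.18, adjusted p = 0.025).

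No gene was called among 14 kinases, ligases and adaptors that act on NCC, 13 basolateral channel and pump genes, 5 genes of potassium secretion, 5 AP-2 factors and cofactors, 11 ureteric lineage genes or 8 claudins. *Klhl3*, the adaptor that targets WNK kinases for degradation, was 1723, 1839, 1215 and 1513 CPM in members and 1601, 1834, 1465 and 1891 CPM in ENaC-negative nuclei (-0.11 ± 0.12). *Wnk1* was 8273, 7258, 6234 and 7121 CPM against 5907, 6635, 5846 and 7894 CPM (0.16 ± 0.11). *Stk39*, whose kinase phosphorylates NCC, was 636, 689, 489 and 650 CPM against 739, 823, 741 and 891 CPM (-0.37 ± 0.13, adjusted p = 0.205), and it passed when members needed at least 2 channel UMIs (-0.63, adjusted p = 0.044).

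Of 25 transcription factors of the distal tubule, 2 were higher and 2 lower. *Tbx2* was 116, 134, 145 and 115 CPM in members against 16.8, 8.15, 45.8 and 54.0 CPM in ENaC-negative nuclei and 42.0, 31.2, 44.0 and 32.7 CPM in proximal tubule nuclei (1.92 ± 0.29, adjusted p = 6.1e-09). *Gata2* was 46.6, 9.58, 37.6 and 34.2 CPM against 2.80, 0, 6.54 and 5.40 CPM, on 22 and 6 UMIs (2.92 ± 0.72, adjusted p = 0.0027). *Prox1* was lower in members, at 38.8, 76.6, 5.37 and 55.6 CPM against 95.2, 192, 105 and 138 CPM (-1.63 ± 0.29, adjusted p = 5.6e-06). *Esrrb*, an oestrogen-related receptor gene, was 279, 431, 258 and 393 CPM against 610, 652, 595 and 570 CPM (-0.83 ± 0.15, adjusted p = 8.2e-06), with no overlap between the classes. Without the mouse block *Prox1* and *Esrrb* had adjusted p of 0.105 and 0.157.

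Among the genes with the largest positive fold changes that moved alike in every mouse, several had few UMIs. *Egfem1* (ENSMUSG00000063600, chr3:29081653-29691058), which encodes an EGF-like domain protein, was not among those few, at 1878, 95.8, 554 and 2445 CPM in members against 106, 53.0, 95.9 and 83.7 CPM (3.68 ± 0.17, adjusted p = 2.8e-96). It was uneven between mice, with 242, 10, 103 and 572 member UMIs and detection in 15.2% to 42.5% of members. With a mouse left out its log2 fold change ran from 3.17 to 4.15, a range that the ± 0.17 does not cover. *Fzd7*, a Wnt receptor gene, had 18 UMIs in members and 2 in ENaC-negative nuclei, a CPM ratio of 19.7 (95% counting interval 4.72 to 175). *Serpinb1a*, a protease inhibitor gene, had 19 against 5 UMIs (2.97 ± 0.79, adjusted p = 0.0072), and *Rhbg*, an ammonia transporter gene of intercalated cells, had 20 against 7, with 15 of the 20 in knockout 1 (2.68 ± 0.78, adjusted p = 0.023). The uncharacterised genes *4930444P10Rik* and *Gm33051* were higher by 2.99 ± 0.88 and 2.32 ± 0.42 (adjusted p = 0.023 and 5.8e-06).

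Among the lower genes, *Erbb4* (ENSMUSG00000062209, chr1:68031884-69108576), a receptor of the EGF receptor family, was 248, 747, 193 and 184 CPM in members and 1263, 1373, 1025 and 943 CPM in ENaC-negative nuclei (-1.92 ± 0.15, adjusted p = 4.5e-36). Control 2 had the highest level in both classes, and the classes did not overlap. *Fgf13* was 77.6, 172, 69.9 and 64.1 CPM against 563, 668, 414 and 446 CPM (-2.50 ± 0.20, adjusted p = 2.5e-34). *St3gal4*, a sialyltransferase gene, was 0, 9.58, 10.7 and 12.8 CPM against 36.4, 102, 43.6 and 81.0 CPM (-2.75 ± 0.50, adjusted p = 6.3e-06). *Ltbp1*, *Ctsc* and *Emb* differed by -2.46 ± 0.49, -2.25 ± 0.60 and -2.23 ± 0.54 (adjusted p = 5.2e-05, 0.011 and 0.0028), and the uncharacterised gene *Gm15848* by -2.10 ± 0.33 (adjusted p = 6.3e-08). *Plet1* and *Heg1* had 1 UMI each in members against 38 and 43, so their CPM in ENaC-negative nuclei was higher by ratios of 17.3 (95% counting interval 2.93 to 703) and 19.6 (95% counting interval 3.34 to 793). *Gp2* and *Gm48855* had 3 UMIs each in members against 62 and 39, with ratios of 9.43 (95% counting interval 3.08 to 47.0) and 5.93 (95% counting interval 1.89 to 30.0).

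Genes that mark neighbouring cell types moved in both directions. Of 8 principal cell markers tested, *Tmem45b* and *Npnt* were higher (1.83 ± 0.38, adjusted p = 0.00023, and 0.57 ± 0.16, adjusted p = 0.030) and *Aqp2*, the water channel of principal cells, was lower (-1.26 ± 0.35, adjusted p = 0.025), but not called without knockout 2 (-0.45, adjusted p = 0.889). *Aqp2* was 23.3, 38.3, 48.4 and 17.1 CPM in members, below its 197, 192, 182 and 36.2 CPM in proximal tubule nuclei of the same mice. Of 7 intercalated cell markers, *Rhbg* and *Atp6v1g3* were higher, and 37 of the 48 *Atp6v1g3* UMIs were in knockout 1 (1.88 ± 0.40, adjusted p = 0.00029). *Umod* and the prostaglandin receptor gene *Ptger3* were the 2 lower of 5 TAL markers (*Ptger3* -1.75 ± 0.48, adjusted p = 0.018), and 0 of 12 proximal tubule markers passed in either direction. Of 12 stress genes, *Spp1*, which encodes osteopontin, was higher at 3306, 881, 2236 and 692 CPM against 1613, 946, 1114 and 532 CPM (0.66 ± 0.12, adjusted p = 2.1e-05). In control 2 the order of *Spp1* was the opposite, and its log2 fold change was -0.20 in nuclei under 1% mitochondrial UMIs.

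Of the 44 differences named here as called, 12 stayed called under every alternative that gave a value. They were the higher genes *S100g*, *Klk1*, *Kl*, *Egfem1*, *Tbx2* and *Gm33051* and the lower genes *Egf*, *Umod*, *Erbb4*, *Fgf13*, *St3gal4* and *Gm15848*. Without the mouse block 25 of the 44 were lost. Leaving out control 1, control 2, knockout 1 or knockout 2 lost 15, 6, 17 and 11 of them. Besides *Aqp2*, the values that moved by over 1.5 times were those of *Npnt*, *Fkbp5* and *Ptger3* without knockout 1 (0.35, -0.41 and -2.93), *Zbtb16* and *Fzd7* without knockout 2 (-0.63 and 6.22) and *Plet1* without control 2 (-6.05).

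**Figure D2:**
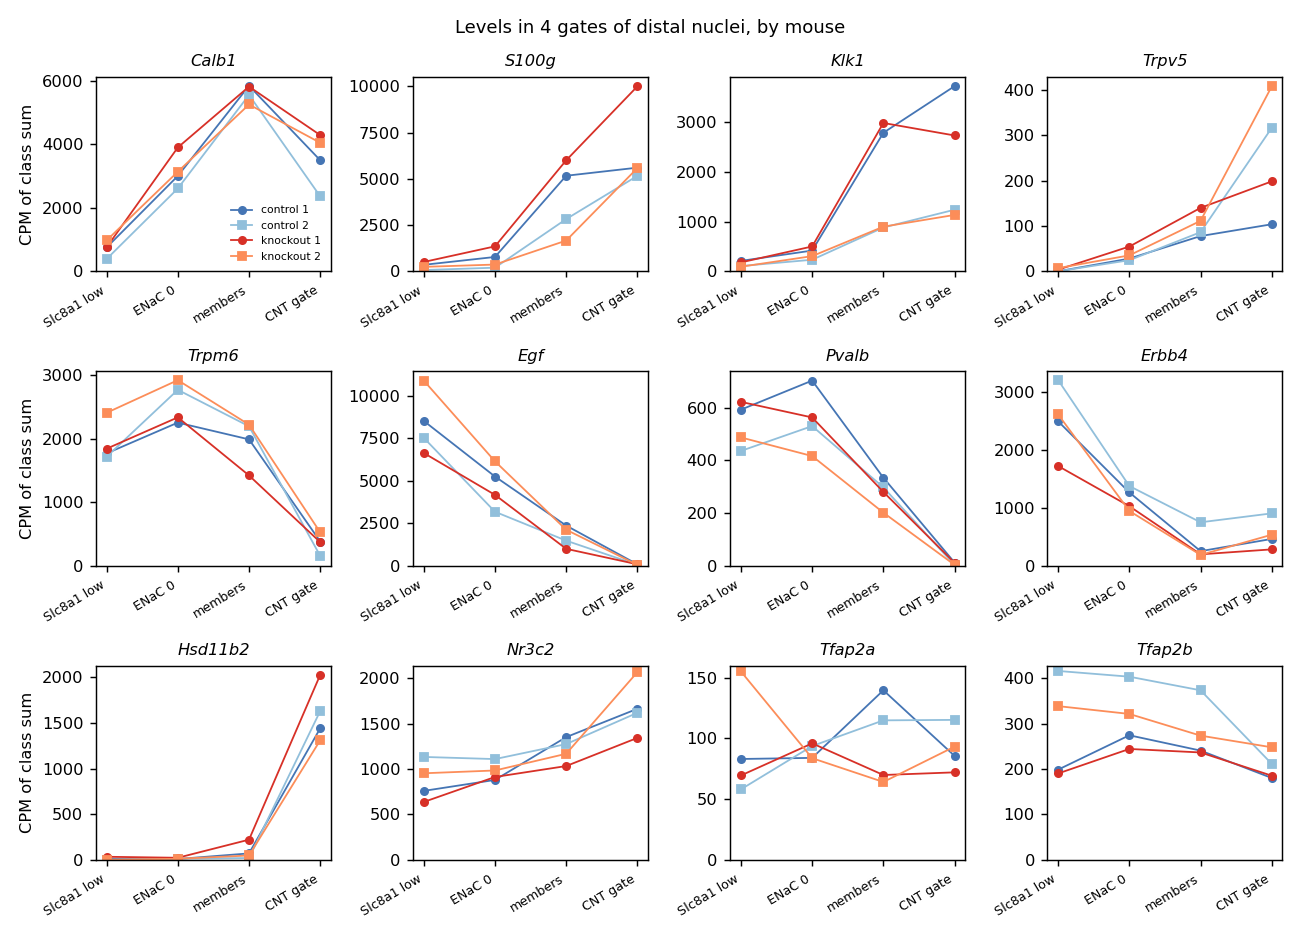
Level of 12 genes, in CPM of the class sum, in 4 gates of distal nuclei with 1 line per mouse: *Slc12a3* nuclei with at most 1 *Slc8a1* UMI and no channel UMI, ENaC-negative nuclei, members and the connecting tubule gate. In all 4 mice *S100g* and *Trpv5* in members lie between the ENaC-negative nuclei and the connecting tubule gate, *Egf* and *Pvalb* do so in the falling direction, and *Calb1* is highest in members.

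The second comparison was with the connecting tubule gate, which shares *Slc8a1* and ENaC with members but lacks *Slc12a3*. That gate set no limit on markers of principal or intercalated cells and may hold such cells. An *Aqp2* UMI was found in 55.0% to 74.8% of its nuclei, against 7.65% to 11.4% of proximal tubule nuclei. Differences from it are therefore not between late DCT and connecting tubule alone. Members were higher for *Egf*, *Pvalb*, magnesium channel genes and several NCC regulators, and lower for the principal cell markers. Of 12262 genes, 1093 (8.91%) were called, 365 (2.98%) higher and 728 (5.94%) lower in members, and the median over all genes was -0.11 on the log2 scale. With nuclei holding at least 3 principal or intercalated cell marker UMIs left out of both classes 125 genes were called, and DESeq2 called 441.

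Of 10 DCT markers, 9 were higher in members and 1, *Erbb4*, was lower (-0.78 ± 0.19, adjusted p = 0.00059), at 460, 901, 279 and 533 CPM in the connecting tubule gate. With nuclei bearing principal or intercalated markers left out, *Erbb4* was higher in members instead (1.33, adjusted p = 0.0086). Of 15 magnesium genes, 6 were higher and 2 lower, with a median of 0.79. *Egf* was 984 to 2352 CPM in members and 69.8, 38.4, 73.3 and 39.3 CPM in the connecting tubule gate (4.85 ± 0.21, adjusted p = 9.5e-119), a level near the 54.6, 68.2, 67.3 and 31.4 CPM of proximal tubule nuclei. *Pvalb* was 201 to 334 CPM against 2.14 to 11.3 CPM (5.24 ± 0.31). *Trpm6* was 1419 to 2218 CPM against 152 to 523 CPM (2.52 ± 0.17), and *Trpm7* was 801 to 1743 CPM against 199 to 361 CPM (2.18 ± 0.17). *Cnnm2* and *Umod* were higher by 2.00 ± 0.18 and 1.58 ± 0.18. For each of these 6 genes the lowest member sum lay above the highest connecting tubule sum.

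Calcium genes split, with 4 of 16 higher, 4 lower and a median of 0.10. *Calb1* was 3503, 2364, 4296 and 4054 CPM in the connecting tubule gate, below the members of each mouse (0.70 ± 0.16, adjusted p = 0.00049). *Ryr2* was 144 to 197 CPM in members against 2.25 to 9.82 CPM (5.04 ± 0.37). *Pth1r* and *Atp2b4* were higher as well (1.25 ± 0.20, adjusted p = 8.8e-09, and 0.70 ± 0.20, adjusted p = 0.0081), but in the alternatives their adjusted p reached 0.634 and 0.999. *Trpv5* was lower in members, against 104, 316, 198 and 407 CPM in the connecting tubule gate (-1.21 ± 0.23, adjusted p = 3.4e-06), as was *S100g* against 5606, 5163, 10006 and 5585 CPM (-0.86 ± 0.17, adjusted p = 1.1e-05). The calcium pump gene *Atp2b2* was lower by 1.27 ± 0.23 on the log2 scale. *Klk1* and *Kl* were not called (-0.27 ± 0.16, adjusted p = 0.419, and 0.09 ± 0.16, adjusted p = 0.872).

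*Trpv5* and *S100g* thus held an intermediate level in members, above ENaC-negative nuclei and below the connecting tubule gate. Both differences were called as reported, whereas *Calb1* in members was called above both. Against the connecting tubule gate the calls of *S100g* and *Calb1* were lost with nuclei bearing principal or intercalated markers left out (adjusted p = 0.522 and 0.105). Over all alternatives the adjusted p against that gate reached 0.347 for *Trpv5* and 0.757 for *S100g*. Against ENaC-negative nuclei that of *Trpv5* reached 0.083. The intermediate level of *Trpv5* and *S100g* was therefore not called under every alternative, although the direction of these differences did not change.

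Of the sodium channel and aldosterone list, 3 of 19 genes were lower in members and 0 higher. *Hsd11b2* was 1442, 1631, 2028 and 1310 CPM in the connecting tubule gate against 19.2 to 220 CPM in members (-4.21 ± 0.22, adjusted p = 1.4e-77), and it was detected in 80.5% to 81.5% of the nuclei of that gate. *Zbtb16* and *Prss8*, the gene of a protease that activates ENaC, were lower too (-1.45 ± 0.32, adjusted p = 0.00018, and -1.16 ± 0.35, adjusted p = 0.013). Their adjusted p reached 0.98 and 0.906 in the alternatives. *Scnn1a* was 374, 374, 374 and 398 CPM in the connecting tubule gate (-0.20 ± 0.18, adjusted p = 0.67) and *Nr3c2* was 1662, 1618, 1342 and 2066 CPM (-0.46 ± 0.16, adjusted p = 0.054), and neither passed. *Scnn1b* and *Scnn1g*, which both gates required, stood at 802, 767, 799 and 783 CPM and 631, 792, 642 and 756 CPM in the connecting tubule gate, above the members of each mouse.

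Of 14 kinases, ligases and adaptors that act on NCC, 4 were higher and 2 lower. *Klhl3* was 1215 to 1839 CPM in members against 344 to 516 CPM (1.87 ± 0.17, adjusted p = 7.1e-26), and *Wnk1* was 6234 to 8273 CPM against 2073 to 3480 CPM (1.37 ± 0.17, adjusted p = 1.7e-14). The phosphatase inhibitor gene *Ppp1r1a* was 233 to 565 CPM against 34.4 to 72.1 CPM (2.79 ± 0.22), and *Wnk4* was higher by a smaller amount (0.56 ± 0.18, adjusted p = 0.022). *Sgk1*, the gene of an aldosterone-induced kinase, and the ubiquitin ligase gene *Nedd4l* were lower (-2.50 ± 0.25, adjusted p = 1.3e-21, and -0.88 ± 0.17, adjusted p = 1.1e-05). *Klhl3*, *Ppp1r1a* and *Sgk1* kept an adjusted p under 0.05 in every alternative. The highest adjusted p over the alternatives was 0.108 for *Wnk1*, 0.856 for *Wnk4* and 0.999 for *Nedd4l*. Of 13 basolateral genes, 3 were higher, among them *Fxyd2*, which encodes a regulator of ion transport (1.03 ± 0.16), and the potassium channel gene *Kcnj10* was lower (-0.61 ± 0.21, adjusted p = 0.036). In the alternatives the adjusted p reached 0.594 for *Fxyd2* and 0.999 for *Kcnj10*.

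All 9 principal cell markers tested were lower in members, their median being -4.19 on the log2 scale, and so were 9 of 11 intercalated cell markers, with a median of -1.93. *Aqp2* was 1232 to 3122 CPM in the connecting tubule gate (-5.99 ± 0.26), and *Aqp3* and *Aqp4* differed by -5.44 ± 0.34 and -4.53 ± 0.36. *Alcam*, the gene of an adhesion molecule, had 8 UMIs in members against 538 (-4.38 ± 0.35), and *Kcne1*, a potassium channel subunit gene, had 8 against 482 (-4.16 ± 0.36). *Slc26a4*, the pendrin gene of intercalated cells, had 0, 0, 21 and 0 member UMIs by mouse against 338 in all in the connecting tubule gate (-2.31 ± 0.33). *Wnt9b*, a ureteric Wnt ligand gene, had 1 UMI in members and 33 in the connecting tubule gate and was not called (adjusted p = 0.061).

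Transcription factors split into 5 higher and 10 lower of 26. *Esrrb* was 258 to 431 CPM in members against 10.3 to 22.1 CPM (4.52 ± 0.27), and *Prox1* had 27 UMIs against 1, a CPM ratio of 86.7 (95% counting interval 14.3 to 3548). Several genes were seen in members alone of these 2 sets. *Fgf13*, *Syt9*, *Rab6b* and *Fam124a* had 56, 15, 12 and 10 UMIs in members and 0 in the connecting tubule gate, and were at least 59.9-, 16.1-, 12.8- and 10.7-fold higher against a floor of 3 UMIs over the class. *Lrrc52*, a potassium channel subunit gene, *Scara5* and *Gm42697* had CPM ratios of 103 (95% counting interval 17.2 to 4182), 73.8 (95% counting interval 19.3 to 628) and 125 (95% counting interval 21.2 to 5070). *Ank2*, an ankyrin gene, and *Uroc1*, a urocanase gene, were higher by 5.75 ± 0.45 and 5.40 ± 0.48. In the other direction *Mcoln3*, *Spock3*, *Fstl1* and *Kcnh5* had 0 UMIs in members and were at least 25.9-, 21.1-, 15.1- and 14.8-fold lower. *Stc1*, *Styk1*, *Macc1*, *Tmod1* and *Ctse*, also at 0, were at least 13.4-, 9.35-, 9.14-, 8.93- and 7.48-fold lower. Of the 52 differences with this gate named here as called, 33 stayed called under every alternative that gave a value, and 17 of the 38 that could be tested were lost when nuclei bearing principal or intercalated markers were left out. With 1 mouse left out, 2 to 4 were lost, and the values that moved by over 1.5 times were those of *Slc26a4* and *Zbtb16* without knockout 1 (-8.11 and -2.22) and *S100g* without knockout 2 (-0.57).

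**Figure D3:**
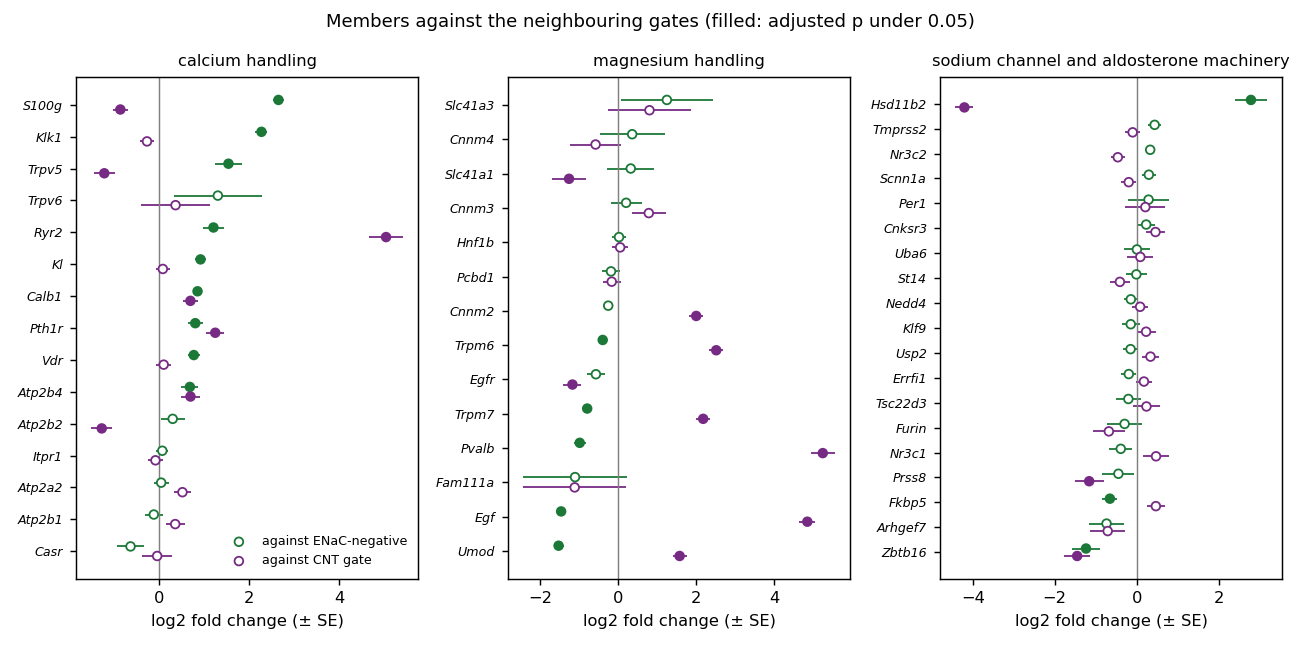
Log2 fold changes (± SE) of the genes of 3 lists, 1 calcium gene left out, in members against ENaC-negative nuclei (green) and against the connecting tubule gate (purple), with filled points for an adjusted p under 0.05 in edgeR. Against ENaC-negative nuclei the filled calcium genes lie right of 0, up to *S100g* at 2.65, and the filled magnesium genes left of it, down to *Umod* at -1.52, while against the connecting tubule gate *Pvalb* is at 5.24 and *Hsd11b2* at -4.21.

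Knockout and control members were then compared by sums per mouse, since the nuclei of a mouse are not replicates. No gene of any list was called. Of 8419 genes, 0 (0%) passed an adjusted p of 0.05 in edgeR, 228 had an unadjusted p under 0.05, and the median log2 fold change, knockout over control, was 0.05. DESeq2 also called 0, with 34 genes under an unadjusted p of 0.05. In the ENaC-negative nuclei 0 of 10569 genes passed in edgeR and in DESeq2, with 309 and 28 under an unadjusted p of 0.05.

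This count depended on single libraries and on the filter for low counts. Without knockout 1, 31 genes were called, 16 higher and 15 lower, and 7 of the lower ones were mitochondrially encoded. *Spp1* was also among the lower genes. Median mitochondrial shares of members were 1.37% and 0.439% in the controls and 0.927% and 0.225% in the knockouts, and their part in these calls was not tested. Without knockout 2, 5 were called, namely *Tenm4*, *Nupr1*, *Wdr17*, *Slc26a4* and *Pde10a*. With every gene of at least 1 UMI kept there were 6, namely *Cyp7b1*, *Slco1a6*, *Wdr17*, *Gramd1b*, *Ghr* and *Pde10a*. In knockout 2, members with at least 10 proximal tubule marker UMIs held most UMIs of the first 5. These were 83 of 83, 75 of 77, 35 of 36, 152 of 159 and 469 of 561 UMIs in that order. The part of such nuclei in these 6 calls was not tested. *Pde10a*, a phosphodiesterase gene, was the only gene called in nuclei under 1% mitochondrial UMIs (-2.02, adjusted p = 0.016). It was not particular to members, since it was also called lower in knockout ENaC-negative nuclei with every gene of at least 1 UMI kept (-1.22, adjusted p = 0.024, edgeR). *Tenm4*, *Nupr1*, *Slc26a4* and *Pde10a* were named here after their values were seen. Where a mouse was left out, the lone mouse of its genotype is assumed to vary like the others.

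*Tfap2a* (ENSMUSG00000021359, chr13:40713802-40738238), the floxed transcription factor gene, was 140 and 115 CPM in control members and 69.9 and 64.1 CPM in knockout members, on 18, 12, 13 and 15 UMIs. The groups did not overlap, and the difference did not pass (-0.94 ± 0.45, unadjusted p = 0.057, adjusted p = 0.999, edgeR). In nuclei under 1% mitochondrial UMIs, of which control 1 had 7 members, it was -0.23. In ENaC-negative nuclei it was 84.0 and 93.7 CPM in the controls and 95.9 and 83.7 CPM in the knockouts (0.01 ± 0.33), and the difference between the 2 genotype changes was not called (-0.93 ± 0.51, or -0.0083 under 1% mitochondrial UMIs). A *Tfap2a* UMI was found in 16.4% to 32.6% of members, 17.7% to 21.2% of ENaC-negative nuclei and 0.170% to 0.914% of proximal tubule nuclei, or 6.45% to 23.8%, 12.0% to 14.3% and 0.0953% to 0.385% after thinning. By mouse the member shares before thinning were 32.6% and 30.3% in the controls and 20.0% and 16.4% in the knockouts, without overlap. The thinned shares were 23.8% and 6.45% in the controls and 11.1% and 8.45% in the knockouts, of 42, 31, 54 and 71 nuclei. In this single random draw control 2 lay below both knockouts, so the groups overlapped. Over all mice *Tfap2a* in members was not called different from ENaC-negative nuclei (0.05 ± 0.26) or from the connecting tubule gate (0.04 ± 0.26).

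Its paralog *Tfap2b* (ENSMUSG00000025927, chr1:19208908-19238845), an AP-2 factor of the distal tubule, was 241 and 373 CPM in control members and 236 and 274 CPM in knockout members, so the groups overlapped (-0.26 ± 0.38). It was 274, 403, 244 and 321 CPM in ENaC-negative nuclei and 180, 211, 185 and 248 CPM in the connecting tubule gate, and members were not called different from either (-0.13 ± 0.17 and 0.42 ± 0.19). *Kctd1*, which encodes a repressor that binds AP-2 factors, was 644 and 1140 CPM in control members and 548 and 620 CPM in knockout members, with no overlap and no call (-0.61 ± 0.38). Without control 2 the difference was -0.17, and without control 1 it was -0.96. In ENaC-negative nuclei *Kctd1* was 784 and 1304 CPM in the controls and 632 and 789 CPM in the knockouts. Over all mice *Kctd1* was higher in members than in the connecting tubule gate (1.47 ± 0.18, adjusted p = 5.0e-15).

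Other named genes of the distal tubule were not called between genotypes. *Calb1* in members was 5852 and 5563 CPM in the controls and 5826 and 5262 CPM in the knockouts (-0.05 ± 0.32). *S100g* was 5169 and 2825 CPM against 6003 and 1663 CPM, so the spread within each genotype was wider than the difference between them (-0.08 ± 0.53). *Egf* was 2352 and 1465 CPM against 984 and 2107 CPM (-0.31 ± 0.43), and *Trpm6* was 1987 and 2193 CPM against 1419 and 2218 CPM (-0.21 ± 0.36). *Kl*, *Wnk1*, *Klhl3* and *Nr3c2* were each lower by value in both knockout mice than in both controls, at -0.27 ± 0.33, -0.23 ± 0.33, -0.39 ± 0.34 and -0.26 ± 0.33, and none was called. Differences of this size are close to or below their standard errors and were not detectable at this depth with 2 mice per genotype.

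By list, the counts called between genotypes were 0 of 15 calcium genes (median log2 fold change -0.08), 0 of 11 magnesium genes (-0.26), 0 of 19 sodium channel and aldosterone genes (-0.05), 0 of 12 NCC kinases and ligases (-0.12) and 0 of 12 proximal tubule markers (0.59). Markers of cell types moved by value as well, with none called. The 5 intercalated cell markers tested, of 11, had a median of 1.18, and the 10 DCT markers tested, of 11, had a median of -0.30 and ran from -1.39 to -0.16. The part of these markers in the genotype values was not tested. Members with at least 10 UMIs of the 12 proximal tubule markers made up 4.65% and 6.06% of the controls and 13.3% and 15.1% of the knockouts, against 8.51%, 4.04%, 10.3% and 7.14% of ENaC-negative nuclei.

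**Figure D4:**
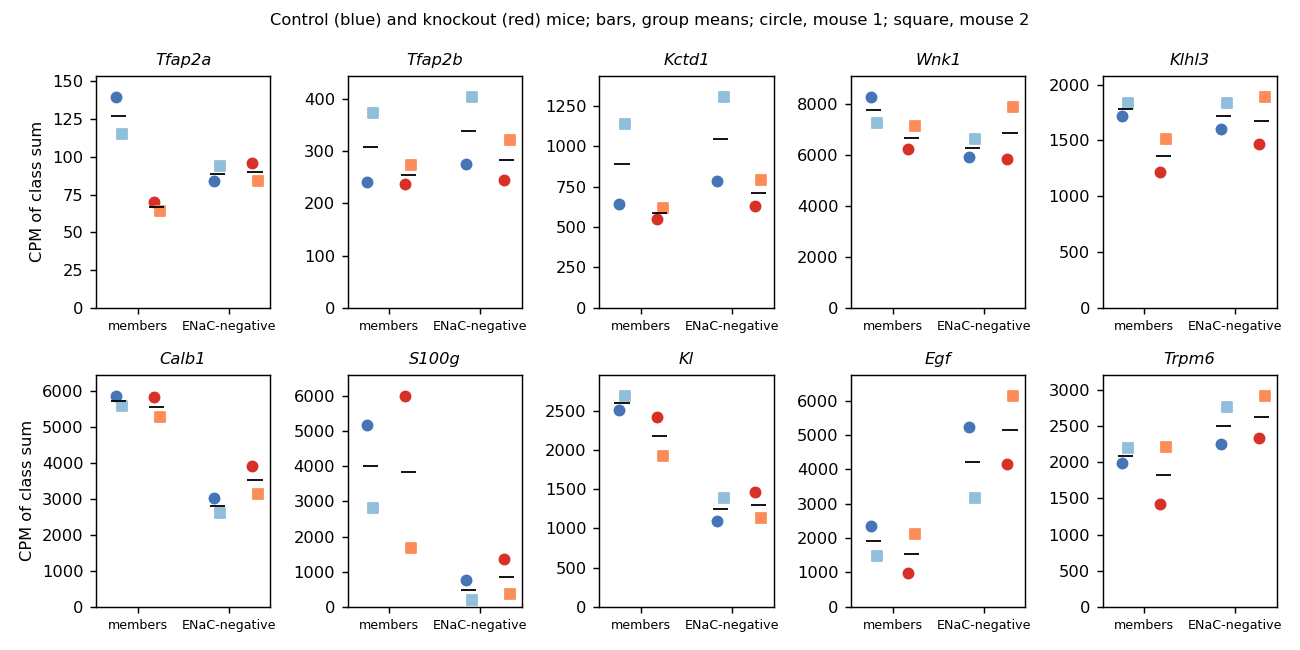
Level of 10 named genes, in CPM of the class sum, in members and ENaC-negative nuclei of control (blue) and knockout (red) mice, with bars at the mean of 2 mice. *Tfap2a* in members was 140 and 115 CPM in the controls and 69.9 and 64.1 CPM in the knockouts, and no gene shown was called.

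Whether the genotype change differed between members and ENaC-negative nuclei was tested in 1 model of both classes. Of 11418 genes, 5 (0.0438%) were called in edgeR, all with a more positive change in members, namely *Wdr17*, *Slco1a6*, *Ghr*, *Gramd1b* and *Cyp7b1*, and 463 had an unadjusted p under 0.05. DESeq2 called 0, with 20 under an unadjusted p of 0.05. All 5 genes had a higher level in proximal tubule nuclei than in members of the same mouse, except *Cyp7b1* in knockout 2. *Ghr*, the growth hormone receptor gene, was 473, 460, 720 and 2398 CPM in members, 795, 954, 1234 and 1053 CPM in ENaC-negative nuclei and 5672, 6581, 6505 and 7748 CPM in proximal tubule nuclei. In knockout 2, members with at least 10 proximal tubule marker UMIs, 11 of 73, held 469 of the 561 *Ghr* UMIs, 75 of 77 *Slco1a6* UMIs and 83 of 83 *Cyp7b1* UMIs. With such nuclei left out of both classes none of the 5 was called.

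**Figure D5:**
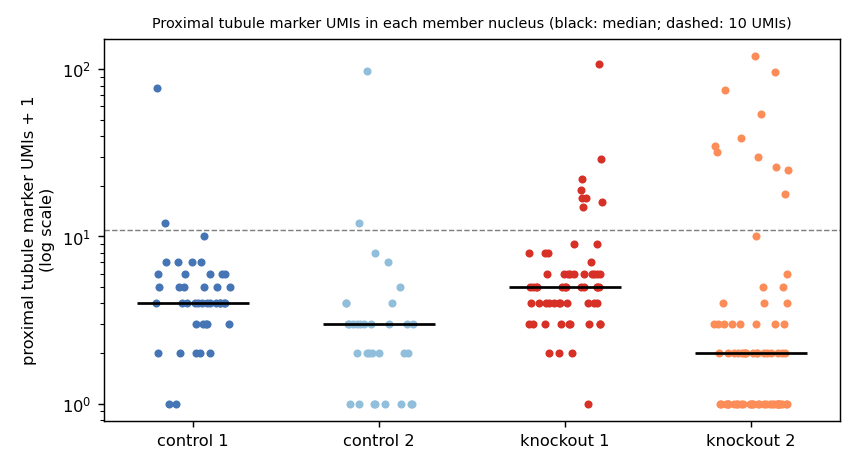
Summed UMIs of 12 proximal tubule markers in each member nucleus, by mouse, plus 1 on a log scale, with the median in black and a dashed line at 10 UMIs. Medians are 3, 2, 4 and 1 UMIs, and 2, 2, 8 and 11 members lie at or above the line, up to 119 UMIs in knockout 2.

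*S100g* had a change 0.98 ± 0.24 lower in members than in ENaC-negative nuclei on the log2 scale and did not pass (adjusted p = 0.067). Without control 1, the mouse in which a single member held 303 *S100g* UMIs, the difference was -1.63. That value rests on control 2 as the lone control, where 1 member held 168 of the 295 *S100g* UMIs. Without control 2 the difference was -0.58, and among nuclei of 2000 to 6000 UMIs it was -0.11. *Egf* was not called over all members (-0.63 ± 0.22, adjusted p = 0.989), but it was called with members of at least 2 channel UMIs (-2.36, adjusted p = 3.8e-06) and in nuclei under 1% mitochondrial UMIs (-1.27, adjusted p = 0.018). The *Egf* and *S100g* values in this test were singled out after they were seen.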

How the data were processed

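Nuclei from kidneys of 2 control and 2 knockout mice were sequenced by 10x 3′ single-nucleus RNA-seq, and the authors deposited raw UMI counts per gene and barcode, made per the submitters' processing notes with Cell Ranger 3.0.2 on mm10. Per library the 10000 barcodes with most UMIs were taken, and those with more than 500 and fewer than 4000 genes and under 5% mitochondrial UMIs were kept. No doublets were removed; scrublet (scanpy 1.11.5) calls served as an alternative. UMIs were summed per mouse and class. Genes with at least 10 UMIs over the sums, gate genes excluded, were tested with edgeR 4.0.16 (quasi-likelihood, TMM, Benjamini-Hochberg adjustment), with mouse as a block between classes and a class by genotype term for the difference of changes. The script was tested on simulated data. DESeq2 1.42.0 (R 4.3.3), other filters, gates and left-out mice were alternatives, of which leaving out nuclei with at least 10 proximal tubule marker UMIs was chosen after seeing the data. Shares were compared by exact permutation. Intervals cover counting error only.

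Members and gene lists were chosen with earlier results of these data known. Named were, in each comparison and direction, at most 10 called genes with the largest changes that went the same way in every mouse, up to 6 called and 4 other genes per list, *Tfap2a*, *Tfap2b*, *Wnt9b* and *Alcam*. Genes named outside this rule are marked in the text, and a few within it are not reported here.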

Additional observations from a re-analysis of the deposited data

Results flagged for a closer look

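For 5 genes the genotype change differed between members and ENaC-negative nuclei by the test of that difference (edgeR, log2 difference of changes ± SE). *Wdr17* was 7.76, 9.58, 113 and 154 CPM in members and 39.2, 134, 85.0 and 45.9 CPM in ENaC-negative nuclei of control mice 1 and 2 and knockout mice 1 and 2, a difference of 4.26 ± 0.80, adjusted p = 0.00078. *Slco1a6*, an organic anion transporter gene, was 23.3, 0, 37.6 and 329 CPM against 104, 65.2, 107 and 113 CPM (3.31 ± 0.73, adjusted p = 0.022). *Ghr*, the growth hormone receptor gene, was 473, 460, 720 and 2398 CPM against 795, 954, 1234 and 1053 CPM (1.19 ± 0.27, adjusted p = 0.040). *Gramd1b*, a cholesterol transport gene, was 23.3, 95.8, 134 and 680 CPM against 106, 187, 451 and 94.5 CPM (2.04 ± 0.48, adjusted p = 0.046). *Cyp7b1*, an oxysterol hydroxylase gene, was 38.8, 47.9, 113 and 355 CPM against 33.6, 228, 255 and 35.1 CPM (2.29 ± 0.54, adjusted p = 0.0497). In each of the 5, both knockout members were above both control members, and knockout 2 was highest. With 1 mouse left out *Ghr* ran from 0.12 (without knockout 2) to 2.08, *Cyp7b1* from 0.27 (without knockout 2) to 4.76, *Slco1a6* from 1.21 (without knockout 2) to 7.74, *Gramd1b* from -0.37 (without knockout 2) to 4.22 and *Wdr17* from 3.30 (without control 2) to 4.92. None of the 5 was called without control 2 or without knockout 2.

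Proximal tubule nuclei held 387, 485, 348 and 398 CPM of *Wdr17*, 944, 964, 1001 and 1367 CPM of *Slco1a6*, 1262, 1167, 1254 and 1147 CPM of *Gramd1b* and 365, 372, 512 and 202 CPM of *Cyp7b1*. In knockout 1, members with at least 10 proximal tubule marker UMIs held 20 of 21 *Wdr17* UMIs, 17 of 21 *Cyp7b1* UMIs and 69 of 134 *Ghr* UMIs. In knockout 2 they held 35 of 36 *Wdr17* UMIs and 152 of 159 *Gramd1b* UMIs. With those nuclei left out of both classes, the difference for *Cyp7b1* was -1.83 and none of the 5 was called, and with called doublets left out 0 genes were called. The single gene called without those nuclei was *Nupr1*, a stress response gene named after its values were seen, at 15.5, 9.58, 210 and 8.55 CPM in members, with 38 of its 39 UMIs in knockout 1 in 1 nucleus.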

How the results depend on the processing

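The member sums held 104431 to 233944 UMIs per mouse, 131 of the 209 members had a single channel UMI, and each genotype had 2 mice, which leaves wide errors on genotype changes. Genotype calls in members, 0 as reported, were 6 without the filter on low counts, 1 in nuclei under 1% mitochondrial UMIs and 0 to 31 with a mouse left out (31 without knockout 1, 5 without knockout 2), and in ENaC-negative nuclei 7, 2 and 0 to 6 (6 without control 2). Members against ENaC-negative nuclei gave 171 calls as reported, 41 by DESeq2, 41 without the mouse block, 61 under 1% mitochondrial UMIs, 111 at 2000 to 6000 UMIs, 293 against ENaC-negative nuclei whatever their *Slc8a1* and 77 to 145 with a mouse left out (77 without knockout 1, 107 without control 1). Against the connecting tubule gate the 1093 calls became 441 by DESeq2, 552 with at least 2 channel UMIs, 125 with principal or intercalated marker nuclei left out and 662 to 909 with a mouse left out (662 without control 2, 702 without knockout 2). The difference test gave 5 calls, and 0 by DESeq2, 2 without TMM, 1 with filterByExpr, 3 without the filter, 1 with at least 2 channel UMIs, 1 with at least 5 *Slc12a3* UMIs, 0 with doublets left out, 0 with principal or intercalated marker nuclei left out, 1 with proximal tubule marker nuclei left out and 1 to 8 with a mouse left out (1 without control 2 and 2 without knockout 2, none of them among the 5, and 8 without knockout 1). The share difference of 0.384 points was 0.106 with at least 2 channel UMIs, and that of *Slc12a3* nuclei, 4.67, was -0.335 under 1% mitochondrial UMIs and -0.0486 to 9.39 with a mouse left out. Except where an alternative itself holds fewer nuclei, mice or genes, the cause was not tested.

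Of the single genes named below for a change of direction, *Spp1*, *Erbb4*, *Cyp7b1* and *Gramd1b* were called as reported and the others were not. The genotype change of *Calb1* in members was 0.031 without the filter, 0.17 under 1% mitochondrial UMIs, 0.063 without doublets, 0.016 without principal or intercalated marker nuclei, 0.22 at 2000 to 6000 UMIs and 0.096 without proximal tubule marker nuclei. In the same settings that of *S100g* was 0.0010, 0.40, 0.0083, 0.44 and 0.032, leaving out the fourth, and -1.29 to 0.54 with a mouse left out. *Egf* was 0.14 without principal or intercalated marker nuclei and -1.002 to 0.12 with a mouse left out, *Tfap2b* was 0.12 with at least 2 channel UMIs and -0.54 to 0.057, and *Trpm6* was 0.029 without doublets, 0.015 without proximal tubule marker nuclei and -0.60 to 0.068. In ENaC-negative nuclei *Tfap2a* was -0.0021 by DESeq2, -0.18 under 1% mitochondrial UMIs, -0.061 without doublets, -0.034 without principal or intercalated marker nuclei, -0.30 at 2000 to 6000 UMIs, -0.049 without proximal tubule marker nuclei and -0.10 to 0.11 with a mouse left out, where *Egf* ran from -0.047 to 0.66, *S100g* from -0.43 to 2.08 and *Tfap2b* from -0.56 to 0.050. Between members and ENaC-negative nuclei *Tfap2a* was -0.0012 without the filter, -0.25 with at least 2 channel UMIs, -0.15 under 1% mitochondrial UMIs, -0.19 without doublets, -0.075 at 2000 to 6000 UMIs, -0.061 without proximal tubule marker nuclei and -0.22 to 0.25 with a mouse left out, *Tfap2b* was 0.0070 at 2000 to 6000 UMIs and *Spp1* -0.20 under 1% mitochondrial UMIs. Against the connecting tubule gate *Tfap2a* was -0.28 with at least 2 channel UMIs, -0.074 under 1% mitochondrial UMIs, -0.16 without doublets, -0.015 at 2000 to 6000 UMIs, -0.076 without proximal tubule marker nuclei and -0.19 to 0.23 with a mouse left out, *Kl* ran from -0.024 to 0.16, *Klk1* was 0.084 with at least 2 channel UMIs, and without principal or intercalated marker nuclei *Scnn1a* was 0.33 and *Erbb4* 1.33. In the difference test *Cyp7b1* was -1.43 without doublets and -1.83 without proximal tubule marker nuclei, and *Gramd1b* was -0.37 to 4.22 with a mouse left out.

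With the replicate number as a replicate block, 0 genes were called by edgeR between genotypes in members (327 at an unadjusted p under 0.05) and 0 in ENaC-negative nuclei (437). Same-numbered mice correlated at 0.194 in members and 0.178 in ENaC-negative nuclei in their deviations from the group means, over 2 pairs, and nothing in the labels says that the numbers pair the mice.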
